A study of Mus musculus with 10 samples.

Results

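The nuclear genes of the mitochondrial respiratory chain and ATP synthase were followed in the epithelial tip cells of the developing mouse lung, at E17.5 and at E11.5 (E, embryonic day). They were chosen by gene symbol alone: every probe set that the array's annotation gives to 1 gene, with a symbol beginning with Nduf, Uqcr, Atp5 or Cox4 to Cox8, or equal to Sdha, Sdhb, Sdhc, Sdhd, Cyc1 or Cycs. This gave 90 of the 17813 genes measured, each by 1 probe set. There were 33 subunits of complex I, 4 of complex II, 9 of complex III, cytochrome c itself, 17 of complex IV, 17 of ATP synthase (complex V) and 9 assembly factors that carry the same name stems. *Ndufa4* and *Ndufa4l2* are named after complex I but were counted with complex IV, to which the NDUFA4 protein is now assigned.

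RNA was hybridised to 10 Affymetrix mouse arrays. For the 5 E17.5 arrays, embryos of the genotype *Id2-CreER; Rosa26R-fGFP* were exposed to tamoxifen at E16.5 (150 µg per g of the mother's weight), and GFP+ cells were collected by flow sorting. The 5 E11.5 arrays hold distal tips that were microdissected after a short dispase treatment, and the labels give the same genotype for both stages. The CreER is driven from *Id2*, which marks the tip, and the E17.5 cells can include some immediate progeny of the tip. Stage and way of isolation cannot be told apart in this design. The replicates are labelled biological, but nothing says that they came from separate litters, so the tests measure the spread between these arrays, whose number limits the precision.

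The respiratory chain passes electrons from NADH (complex I) and succinate (complex II) through coenzyme Q, complex III and cytochrome c to oxygen at complex IV, and complexes I, III and IV pump protons as they do so. ATP synthase lets the protons flow back and makes ATP. A few core subunits come from mitochondrial DNA and were not analysed here, whereas the genes described here lie in the nucleus. Several subunits exist as pairs of paralogues, one used in most tissues and the other in striated muscle, testis, lung or low oxygen. In the late fetal lung the tip produces alveolar cells, among them the surfactant-secreting type II cells, which are rich in mitochondria.

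Values are log2 signals, so that a difference of 1 is 2-fold, and fold changes are E17.5 relative to E11.5. They are given with the standard error (SE) of limma's fit across all genes and its Benjamini-Hochberg adjusted p. A gene is called higher or lower where that p is under 0.05. Different probe sets cannot be set against each other in level. RNA was taken from whole cell preparations, in which fewer cells of a type and less RNA per cell cannot be told apart. Array medians were 7.14 to 7.23 at E17.5, against 7.01 to 7.14 at E11.5, correlations between arrays were at least 0.984 within E17.5, at least 0.988 within E11.5 and at most 0.847 between the stages, and 0 pairs of arrays were identical. Of 15 lung epithelium markers 10 were higher at E17.5, with the surfactant genes *Sftpd* (8.13), *Sftpa1* (6.42) and *Sftpb* (4.96) furthest, 3 were lower (*Foxa2*, *Cldn6* and *Etv5*), and *Nkx2-1* and *Sox9* were not called (median 0.64, mean signals of 12.37 to 12.65 at E17.5, against 10.62 to 10.79 at E11.5). Other cell types moved with the stage too: 12 of 13 macrophage markers and all 10 endothelial markers were higher at E17.5 (mean signals of 9.37 to 10.1 at E17.5 against 5.63 to 6.48 at E11.5, and of 9.06 to 11.04 at E17.5 against 5.03 to 6.13 at E11.5). All 14 immediate early genes were higher at E17.5, as were 4 of 10 mesenchymal markers (3 lower) and 1 of 6 erythroid ones (4 lower). The erythroid markers had mean signals of 5.44 to 6.33 at E17.5, against 8.07 to 9.57 at E11.5. Among them *Hbb-y* (−7.84), *Hba-x* (−6.72), *Hbb-bh1* (−6.04) and *Klf1* (−0.76) were lower at E17.5 and *Alas2* higher (1.48). The part of these cell types and genes in the results was not tested.

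The oxidative phosphorylation genes moved in both directions. At E17.5, 37 of the 90 (41.1%) were higher, 24 (26.7%) lower and 29 not called, shares near those of all genes, of which 36.9% were higher and 31.5% lower. A change of at least 2-fold was called upward for 20 members and downward for 6, against 24.2% and 16.3% of all genes. All E17.5 arrays lay above all E11.5 arrays for 37 members and below them for 22, against 32.3% and 26.3% of all genes. The members' median log2 fold change was 0.07 beside 0.03 for all genes, and 48 of them (53.3%) moved by less than 0.5 in either direction, as did 41.0% of all genes. Most of these transcripts were bright: 59 members averaged over 12 at E17.5 and 44 did so at E11.5, and 85 had a mean over the 10 arrays above 7.11, the median of all values.

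The direction of the small changes depended on the scaling of the arrays. After quantile normalization 26 members were higher and 50 lower, with a median of −0.31 (all genes −0.04). Of all genes 31.9% were then higher and 39.0% lower. At least 2-fold higher and lower were 17 and 12 members, against 3576 and 3935 of the 17813 genes. After centring each array on its median, which moved the median of all genes to −0.10, 30 members were higher and 34 lower, with a median of −0.06. Of all genes 33.2% were then higher and 36.9% lower. At least 2-fold higher and lower were 19 and 10 members, against 4002 and 3265 of the 17813 genes. The 26 members that changed at least 2-fold in the values as deposited kept their sign and their call under both. Of the 61 called members, 54 kept their sign after quantile normalization and 49 kept both sign and call.

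**Figure D1:**
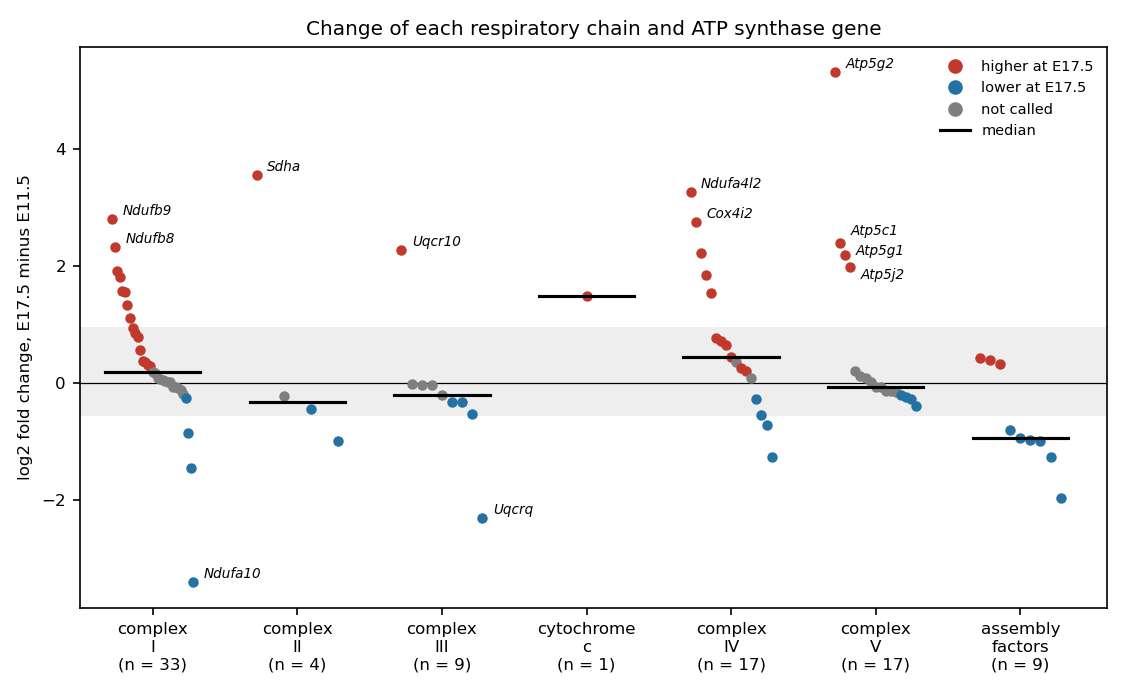
Log2 fold change (E17.5 minus E11.5) of the 90 genes, 1 point a gene, sorted within each complex. Red and blue points were called higher and lower at E17.5 in the values as deposited, grey points were not called, black lines are medians, and the grey band spans the middle quartiles of all genes (−0.55 to 0.94). Most genes sit near 0, where the sign depends on the scaling, and the 12 named genes lie over 2 from the median of the other genes of their complex.

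The complexes differed in how their genes were spread. Complex IV had the highest median, 0.45, with 11 genes higher and 4 lower, followed by complex I with 0.19 (16 higher and 4 lower), where 36.9% of all genes were higher and 31.5% lower. Complexes V, III and II had medians of −0.06, −0.21 and −0.32, with 4, 1 and 1 genes higher and 4, 4 and 2 lower. The assembly factors had the lowest median, −0.94 (3 higher and 6 lower). Quantile normalization gave medians of 0.18 for complex IV, −0.22 for complex I, −0.42 for complex V, −0.71 for complex III, −0.83 for complex II and −1.43 for the assembly factors, so that complex I changed its sign. The counts under that scaling were 8 higher and 5 lower in complex IV, 11 and 15 in complex I, 4 and 12 in complex V, 1 and 8 in complex III, 1 and 3 in complex II and 0 and 7 among the assembly factors. Of all genes 31.9% were higher and 39.0% lower under it.

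Averages over a complex differed from its median where single genes moved far. The mean signal of the complex II genes was 11.62 ± 0.11 at E17.5 and 11.14 ± 0.07 at E11.5 (SD, n = 5 each), although only 1 of the 4 genes rose. Complex I averaged 12.15 ± 0.08 at E17.5 and 11.75 ± 0.06 at E11.5, and complex IV 10.43 ± 0.05 at E17.5 and 9.71 ± 0.05 at E11.5. Complex V averaged 13.36 ± 0.05 at E17.5 and 12.74 ± 0.03 at E11.5, and complex III 11.51 ± 0.04 at E17.5 and 11.68 ± 0.05 at E11.5. Under quantile normalization the mean difference was 0.23 for complex V, −0.58 for complex III and −0.04 for both complexes I and II, whose means were higher at E17.5 as deposited.

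**Figure D2:**
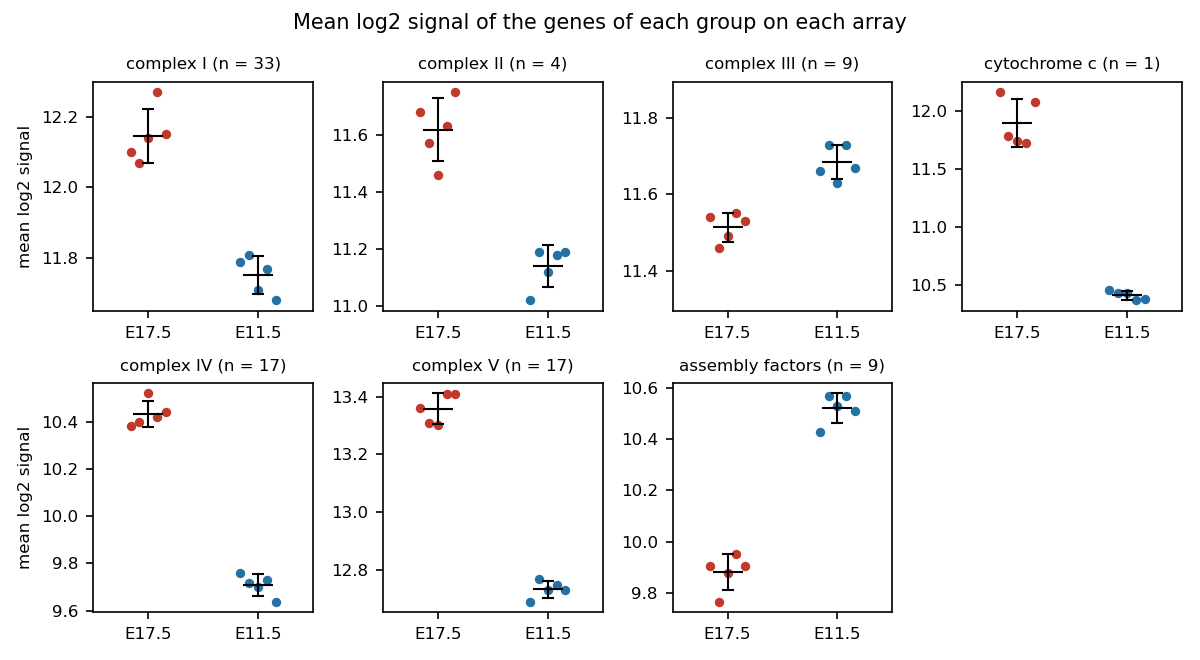
Log2 signal averaged over each complex's genes, 1 point an array, with the mean and SD over the 5 E17.5 arrays (red, left) and the 5 E11.5 arrays (blue, right) as deposited; each panel has its own axis. The 2 stages do not overlap in any panel, with complex III and the assembly factors lower at E17.5 and the others higher, but for complexes I and II the difference turns to −0.04 after quantile normalization.

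In ATP synthase 3 genes that make one and the same protein moved differently. *Atp5g1*, *Atp5g2* and *Atp5g3* encode the c subunit, the small membrane protein whose ring turns as protons pass; their mitochondrial targeting sequences differ, but the mature peptide is identical. *Atp5g2* had log2 signals of 13.30, 13.26, 13.34, 13.31 and 13.36 on the E17.5 arrays, against 8.0, 8.07, 8.03, 7.96 and 7.98 on the E11.5 arrays. It was the most changed of the 90 genes, 39.5-fold higher at E17.5 with stages far apart and little spread within each (log2 fold change 5.30 ± 0.07, adjusted p = 2.4e-13). *Atp5g1* had 12.79, 12.56, 12.75, 12.99 and 13.00 on the E17.5 arrays, against 10.54, 10.76, 10.54, 10.73 and 10.55 on the E11.5 arrays. It rose as well, with no overlap, by 4.57-fold (log2 fold change 2.19 ± 0.10, adjusted p = 1.5e-09). *Atp5g3* had 13.92, 13.94, 13.85, 13.90 and 13.97 on the E17.5 arrays, against 13.94, 13.95, 14.03, 13.99 and 13.98 on the E11.5 arrays. It was bright at both stages, which overlapped, and was not called as deposited (log2 fold change −0.06 ± 0.07, adjusted p = 0.46), although it was lower after quantile normalization (−0.42) and median centring (−0.19).

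The regions around the starts of these 3 genes are shown because their transcripts moved so differently. They are RefSeq windows of GRCm38.p6, from 250 bases before to 50 bases after the annotated start, printed 5′ to 3′ on the gene's strand. Capitals mark GCGCATGC, the core of the site bound by NRF1 (nuclear respiratory factor 1, a regulator of many respiratory genes), on either strand. The windows lie at chr15:102670998-102671297 (minus strand) for *Atp5g2*, chr11:96075582-96075881 (minus strand) for *Atp5g1* and chr2:73911277-73911576 (minus strand) for *Atp5g3*.
Atp5g2: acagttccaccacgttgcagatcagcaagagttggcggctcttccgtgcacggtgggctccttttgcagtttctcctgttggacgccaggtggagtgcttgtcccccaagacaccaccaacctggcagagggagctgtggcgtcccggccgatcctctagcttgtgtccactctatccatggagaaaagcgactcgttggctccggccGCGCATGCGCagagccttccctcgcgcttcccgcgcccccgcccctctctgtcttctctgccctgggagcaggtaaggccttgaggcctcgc
Atp5g1: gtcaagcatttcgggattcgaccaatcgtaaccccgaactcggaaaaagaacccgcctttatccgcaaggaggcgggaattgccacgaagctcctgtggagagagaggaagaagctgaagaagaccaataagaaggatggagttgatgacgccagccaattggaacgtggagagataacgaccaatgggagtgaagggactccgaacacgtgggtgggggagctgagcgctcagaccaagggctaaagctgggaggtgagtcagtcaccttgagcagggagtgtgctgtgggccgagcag
Atp5g3: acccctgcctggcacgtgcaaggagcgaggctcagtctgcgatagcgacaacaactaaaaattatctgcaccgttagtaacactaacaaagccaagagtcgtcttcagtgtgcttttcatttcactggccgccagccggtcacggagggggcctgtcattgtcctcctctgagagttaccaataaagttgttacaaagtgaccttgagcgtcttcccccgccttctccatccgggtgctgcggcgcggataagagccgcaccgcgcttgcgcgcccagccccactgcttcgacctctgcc
Only the *Atp5g2* window held the word, as 2 matches that overlap on opposite strands in one palindromic run of 10 bases. A match is a description of these letters and not a bound site.

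Such words were counted in all members with a RefSeq window (73 of 90). GCGCATGC stood in 12 of them (16.4%), against 3.05% of 27025 genes with windows of the same length. AAGATGGC, the core word of YY1, stood in 10 (13.7% against 3.19%), and CCGGAAGT, that of GABP (nuclear respiratory factor 2), in 5 (6.85% against 4.31%). No word contains another, both strands were read, and 26 members (35.6%) held at least 1 of them, against 9.91% of all genes. Of the 20 members with a window that changed at least 2-fold, 3 held the NRF1 word, 5 that of YY1 and 1 that of GABP, and of the 40 that moved by less than 0.5 these numbers were 6, 3 and 4. The NRF1 word stood in the windows of *Atp5g2*, *Atp5k*, *Atp5l*, *Cox6a1*, *Cycs*, *Ndufa6*, *Ndufa8*, *Ndufaf4*, *Ndufaf5*, *Sdhb*, *Uqcr11* and *Uqcrc1*, which include genes called higher, lower and neither.

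Outside the c ring, the F1 head of ATP synthase, where ATP is made, changed in 1 subunit by over 2-fold. *Atp5c1*, the γ subunit and central stalk, had 13.68, 13.68, 13.62, 13.87 and 13.83 on the E17.5 arrays, against 11.19, 11.36, 11.37, 11.28 and 11.57 on the E11.5 arrays. All E17.5 arrays were higher (log2 fold change 2.39 ± 0.09, adjusted p = 3e-10). Its partners in the head moved little: the fold changes of *Atp5a1* (α) and *Atp5e* (ε) were 0.12 and 0.02 and not called, and became −0.26 and −0.33 after quantile normalization, and those of *Atp5b* (β) and *Atp5d* (δ) were −0.21 (adjusted p = 0.039) and −0.24 (adjusted p = 0.024). The call for *Atp5b* was lost when any of 6 single arrays was left out (E17.5 replicates 2 or 3, or E11.5 replicates 2, 3, 4 or 5), and that for *Atp5d* without E17.5 replicates 2 or 3 or E11.5 replicate 2.

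In the membrane sector of ATP synthase *Atp5j2*, the f subunit, stood apart from its neighbours. Its signals were 13.04, 13.10, 13.26, 13.33 and 13.20 on the E17.5 arrays, against 11.27, 11.29, 11.17, 11.08 and 11.22 on the E11.5 arrays, with the stages clearly separate (log2 fold change 1.98 ± 0.08, adjusted p = 6.6e-10). The e subunit *Atp5k* was lower at E17.5 (−0.39 ± 0.07, adjusted p = 0.00038), and *Atp5l*, *Atp5md* and *Atp5mpl* were not called (−0.06 to −0.14). Of the 4 subunits of the peripheral stalk, which holds the head still, *Atp5h* was lower (−0.27 ± 0.08, adjusted p = 0.011) and the other 3 were not called (*Atp5pb* 0.20, *Atp5o* 0.08 and *Atp5j* −0.16, with *Atp5pb* and *Atp5o* at −0.17 and −0.28 after quantile normalization).

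**Figure D3:**
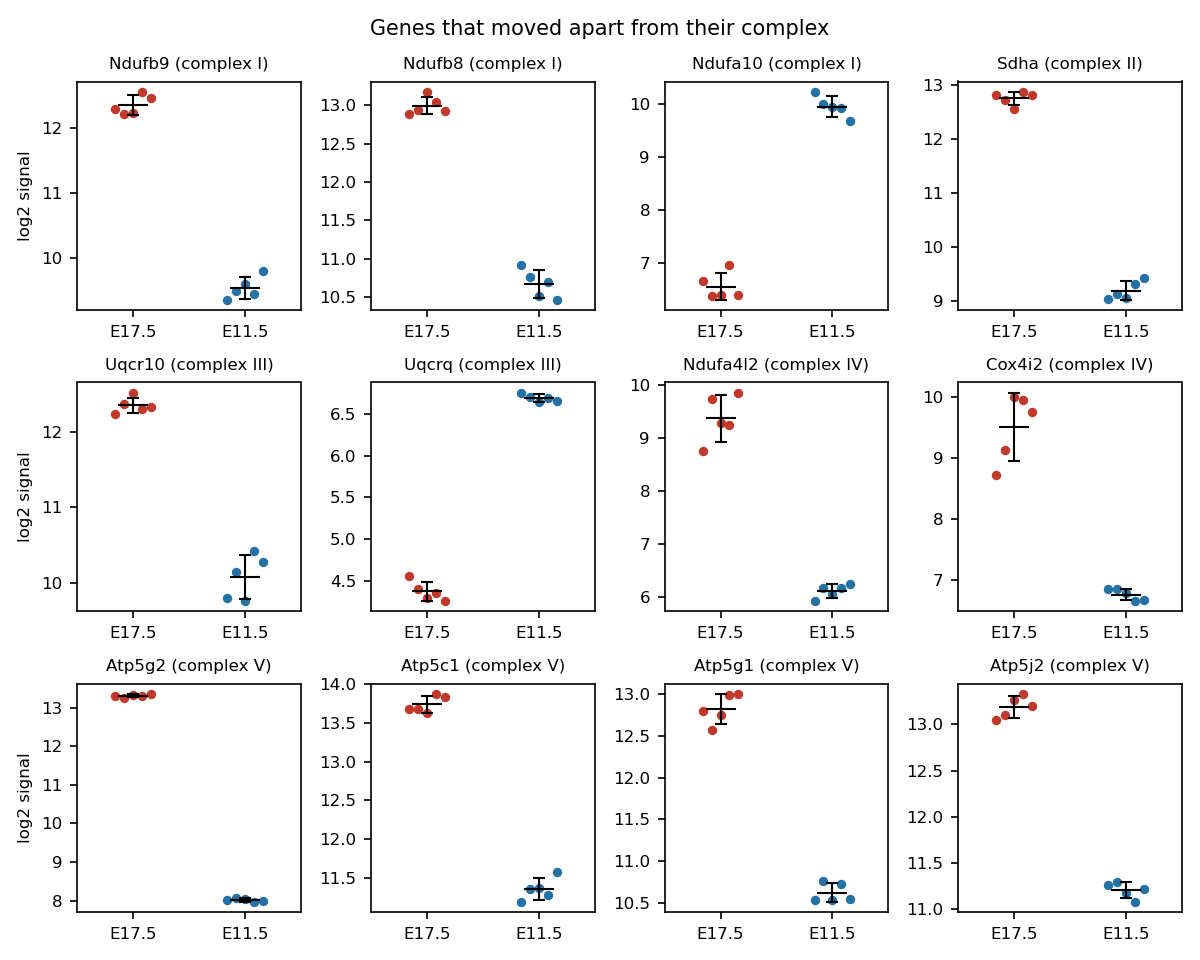
Log2 signals of the 12 genes that moved apart from their complex, on each array (E17.5 red and left, E11.5 blue and right), with the mean and SD of 5 arrays and an axis for each panel. The stages do not overlap in any panel; 10 genes were higher at E17.5 and *Ndufa10* and *Uqcrq* lower.

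Complex I, the largest complex of the chain, had 8 of 33 genes at least 2-fold higher and 2 at least 2-fold lower. Of all genes, 24.2% were at least 2-fold higher and 16.3% at least 2-fold lower. The membrane arm, which pumps protons, held 6 of the 8 rises among its 18 accessory subunits. As deposited, 9 of these 18 were higher and 2 lower with a median of 0.23, beside 36.9% higher and 31.5% lower of all genes. After quantile normalization 7 were higher and 8 lower with a median of −0.20, beside 31.9% higher and 39.0% lower of all genes. *Ndufb9* gave 12.30, 12.21, 12.23, 12.55 and 12.46 on the E17.5 arrays, against 9.36, 9.5, 9.61, 9.45 and 9.80 on the E11.5 arrays. *Ndufb8* gave 12.89, 12.94, 13.17, 13.05 and 12.93 on the E17.5 arrays, against 10.91, 10.76, 10.52, 10.69 and 10.46 on the E11.5 arrays. In both the 2 stages were wide apart, with rises of 6.99-fold and 5.02-fold (adjusted p = 2.3e-10 and 9.8e-10). The other accessory genes of this arm that rose at least 2-fold were *Ndufb2* (log2 fold change 1.91), *Ndufa3* (1.57), *Ndufc2* (1.33) and *Ndufb11* (1.11), each with all E17.5 arrays above all E11.5 arrays.

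The opposite change was seen in *Ndufa10*, an accessory subunit of the same arm related to nucleoside kinases. Its signals were 6.65, 6.37, 6.39, 6.96 and 6.4 on the E17.5 arrays, against 10.23, 9.996, 9.95, 9.92 and 9.67 on the E11.5 arrays. On every E17.5 array it was below 7.11, the median of all values, and on every E11.5 array well above it (10.6-fold lower at E17.5, log2 fold change −3.40 ± 0.14, adjusted p = 3.8e-10). It was the largest fall among the 90 genes. *Ndufc1*, a small subunit of the membrane arm, fell by 0.86 (adjusted p = 8.7e-05).

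In the matrix arm, where NADH is oxidised, 4 of 8 accessory subunits were higher and 1 lower as deposited, but 1 higher and 4 lower after quantile normalization. The one lower as deposited, *Ndufs4*, is needed for a stable arm and is mutated in Leigh syndrome in people. Its signals were 7.12, 7.33, 7.41, 8.24 and 7.31 on the E17.5 arrays, against 9.26, 8.95, 8.81, 8.91 and 8.76 on the E11.5 arrays. Replicate 4 of E17.5 was higher than the others of its stage but still below every E11.5 array (log2 fold change −1.46 ± 0.19, adjusted p = 2.3e-05). The rises were those of *Ndufa12* (1.55), *Ndufa6* (0.56), *Ndufa5* (0.37) and *Ndufv3* (0.36), which after quantile normalization were 1.05, 0.08, −0.02 and 0.02. *Ndufab1*, the mitochondrial acyl carrier protein that sits in both arms, rose by 1.81 ± 0.07 (3.51-fold, adjusted p = 4.8e-10).

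The core subunits of complex I, which hold the flavin and the iron-sulphur clusters, did not reach a 2-fold change in either direction. Of the 6 measured, *Ndufs7* (0.94 ± 0.13, adjusted p = 3.2e-05) and *Ndufs8* (0.79 ± 0.09, adjusted p = 5e-06) were higher, *Ndufs1* was lower (−0.26 ± 0.08, adjusted p = 0.014), and *Ndufs3* (−0.09), *Ndufv1* (0.19) and *Ndufv2* (0.06) were not called. After quantile normalization *Ndufv1* and *Ndufv2* were at −0.24 and −0.38.

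The chaperones that build complex I went mainly the other way. Of the 8 *Ndufaf* genes, 6 were lower at E17.5: *Ndufaf8* (−1.96), *Ndufaf4* (−1.27), *Ndufaf2* (−0.99), *Ndufaf5* (−0.97), *Ndufaf6* (−0.94) and *Ndufaf1* (−0.81), with all E17.5 arrays below all E11.5 arrays. *Ndufaf8* had 7.86, 7.72, 7.99, 7.93 and 7.92 on the E17.5 arrays, against 9.89, 9.97, 9.87, 9.85 and 9.67 on the E11.5 arrays, with no array near those of the other stage (log2 fold change −1.96 ± 0.09, adjusted p = 8.6e-10). *Ndufaf3* (0.39) and *Ndufaf7* (0.33) were higher as deposited but at −0.21 and −0.27 after quantile normalization. A wider list of 16 complex I assembly factors, these 8 included, had 3 higher and 13 lower with a median of −0.65. The third higher one was *Tmem186* (1.08) and the next lower *Nubpl* (−1.18), which delivers iron-sulphur clusters. Beside the counts of both lists, 36.9% of all genes were higher and 31.5% lower as deposited.

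Complex II, succinate dehydrogenase, is shared with the citric acid cycle and has only 4 subunits, which did not move together. The flavoprotein *Sdha*, which binds succinate, had 12.80, 12.71, 12.56, 12.86 and 12.81 on the E17.5 arrays, against 9.04, 9.14, 9.05, 9.32 and 9.42 on the E11.5 arrays. It was 11.8-fold higher at E17.5 with the stages far apart (log2 fold change 3.56 ± 0.10, adjusted p = 2.1e-11). Its iron-sulphur partner *Sdhb* fell by 0.44 (adjusted p = 0.00075). Of the membrane anchors *Sdhc* fell by 0.99 (adjusted p = 8.9e-06), and *Sdhd* was not called (−0.21 ± 0.10, adjusted p = 0.084), though it was lower after quantile normalization (−0.76). Among the 4 genes of its assembly factors *Sdhaf3* was higher (1.89) and the other 3 lower.

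In complex III, where coenzyme Q hands its electrons to cytochrome c, 1 small subunit was higher at E17.5 and another lower, and the rest moved by 0.52 or less. *Uqcr10*, a small subunit next to cytochrome c1, had 12.23, 12.37, 12.52, 12.31 and 12.32 on the E17.5 arrays, against 9.80, 10.14, 9.76, 10.41 and 10.28 on the E11.5 arrays. It rose 4.83-fold without overlap (log2 fold change 2.27 ± 0.13, adjusted p = 1.2e-08). *Uqcrq*, the ubiquinone-binding small subunit, had 4.56, 4.4, 4.30, 4.36 and 4.26 on the E17.5 arrays, against 6.75, 6.71, 6.64, 6.69 and 6.66 on the E11.5 arrays. It was 4.97-fold lower at E17.5 (log2 fold change −2.31 ± 0.08, adjusted p = 9.7e-11), but its probe set lay below the median of all values on all 10 arrays. The redox subunits changed little: the Rieske protein *Uqcrfs1* was not called (−0.04) and cytochrome c1, *Cyc1*, fell by 0.33 (adjusted p = 0.024), a call lost without E17.5 replicate 1 or 2 or E11.5 replicate 1. *Uqcrc2* and *Uqcrb* were lower (−0.52 and −0.33), and *Uqcrc1*, *Uqcrh* and *Uqcr11* were not called.

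*Cycs*, the somatic cytochrome c that carries electrons to complex IV and also serves in apoptosis, had 12.16, 11.78, 11.74, 11.71 and 12.07 on the E17.5 arrays, against 10.46, 10.43, 10.43, 10.37 and 10.38 on the E11.5 arrays. It was 2.79-fold higher at E17.5 with separate stages (log2 fold change 1.48 ± 0.10, adjusted p = 5.7e-08), and the rise was 0.91 after quantile normalization.

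Complex IV, cytochrome c oxidase, contained most of the paralogue pairs. The general isoforms and single-copy subunits (9 genes) had 6 higher and 2 lower with a median of 0.25, but 3 and 3 with a median of −0.12 after quantile normalization. The isoforms restricted to certain tissues or states (8 genes) had 5 higher and 2 lower with a median of 0.74, and the same counts with a median of 0.42 after quantile normalization. Among the general subunits *Cox8a* and *Cox5b* changed most. *Cox8a* had 11.89, 11.60, 11.80, 11.68 and 11.74 on the E17.5 arrays, against 9.91, 9.98, 9.83, 9.92 and 9.81 on the E11.5 arrays. *Cox5b* had 12.82, 12.73, 12.79, 12.82 and 12.80 on the E17.5 arrays, against 11.27, 11.24, 11.20, 11.30 and 11.31 on the E11.5 arrays. They were 3.60-fold and 2.89-fold higher at E17.5, with spreads of 0.11 or less (SD) within a stage (adjusted p = 9.4e-10 and 1e-09). *Cox5a*, which faces the matrix as *Cox5b* does, fell by 0.55 (adjusted p = 1.8e-05), with all E17.5 arrays below all E11.5 arrays.

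The subunit 4 pair moved unequally. *Cox4i2*, the lung isoform that is also induced by low oxygen, had 8.73, 9.14, 10.001, 9.95 and 9.75 on the E17.5 arrays, against 6.85, 6.85, 6.78, 6.65 and 6.67 on the E11.5 arrays. Every E17.5 array was higher, but replicates 1 and 2 lay lower than the other 3 (6.75-fold, log2 fold change 2.75 ± 0.22, adjusted p = 2.4e-07). *Cox4i1*, the general isoform, had 13.28, 13.24, 13.29, 13.23 and 13.21 on the E17.5 arrays, against 13.18, 13.17, 13.19, 13.19 and 13.12 on the E11.5 arrays. All E17.5 arrays lay just above those of E11.5, but the change of 0.08 ± 0.07 was not called (adjusted p = 0.31) and was −0.30 after quantile normalization. The difference between the 2 fold changes was 2.67.

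The same contrast held for NDUFA4 and its paralogue. *Ndufa4l2*, a target of hypoxia-inducible factor 1 that lowers respiration in other cells, had 8.75, 9.74, 9.28, 9.24 and 9.85 on the E17.5 arrays, against 5.92, 6.17, 6.04, 6.16 and 6.23 on the E11.5 arrays. All E17.5 arrays were far above those of E11.5 (9.62-fold, log2 fold change 3.27 ± 0.18, adjusted p = 8.4e-09), and replicate 1 was again the lowest of its stage. *Ndufa4* had 12.71, 12.53, 12.41, 12.36 and 12.73 on the E17.5 arrays, against 12.52, 12.90, 12.86, 12.88 and 12.93 on the E11.5 arrays, with overlapping stages. It was called lower at E17.5 (−0.27, adjusted p = 0.048), a call that was lost without any of 7 single arrays (E17.5 replicates 2, 3 or 4, or E11.5 replicates 2, 3, 4 or 5). The fold changes of the pair differed by 3.53.

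*Cox4i2* and *Ndufa4l2* are also known from pericytes, so an 11-gene pericyte list was read beside them; it was added after these values had been seen. Of the 11, 7 were higher at E17.5 and 2 lower, beside 36.9% higher and 31.5% lower of all genes. The list mean was 7.77 to 9.08 at E17.5, against 6.74 to 7.51 at E11.5, lowest at E17.5 in replicate 1. The mean of the mesenchymal markers was also lowest at E17.5 in replicate 1 (8.30, with a highest of 9.33). *Higd1b*, a pericyte marker, had 6.90, 8.86, 7.59, 7.43 and 8.45 on the E17.5 arrays, against 4.75, 4.89, 4.6, 4.6 and 4.27 on the E11.5 arrays, and *Rgs5* 8.12, 9.74, 8.87, 9.00 and 9.37 on the E17.5 arrays, against 7.15, 6.09, 6.84, 7.49 and 6.0 on the E11.5 arrays. *Acta2* was higher by 4.32 at E17.5, and *Myh11* and *Notch3* were lower (−2.18 and −1.78). *Abcc9* lay below the median of all values on all 10 arrays (4.10 to 6.04 at E17.5 against 3.55 to 4.33 at E11.5). The part of such cells in these results was not tested.

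Of the muscle-type isoforms *Cox6a2* rose most. It had 8.23, 8.07, 8.76, 7.63 and 7.66 on the E17.5 arrays, against 6.11, 5.31, 6.01, 5.99 and 5.80 on the E11.5 arrays. The stages were separate and the spread within each was wide (log2 fold change 2.23 ± 0.22, adjusted p = 1.8e-06). Its liver-type partner *Cox6a1* rose by 0.64 ± 0.09 (adjusted p = 2.6e-05), so the 2 fold changes differed by 1.58. *Cox7a1*, the heart form, was higher by 0.72 ± 0.15 (adjusted p = 0.00099), and its partner *Cox7a2* by 0.45 ± 0.07 (adjusted p = 6e-05), which is 0.10 after quantile normalization and no longer called. *Cox8b*, a muscle form, was not called (0.37 ± 0.16, adjusted p = 0.061), but was called without E17.5 replicate 3 or without E11.5 replicate 1 or 3. A list of 14 striated muscle genes had 5 higher and 2 lower, beside 36.9% higher and 31.5% lower of all genes. Its mean was 6.28 to 6.78 at E17.5, against 5.76 to 6.13 at E11.5. Higher were *Des* (2.5), *Tnnt2* (2.35), *Actc1* (2.09), *Myl7* (1.63) and *Ckm* (0.88), and lower were *Myh6* and *Mb* (−1.76 and −1.12). *Ckm*, *Myh6* and *Mb* lay below the median of all values on every array. The part of the muscle list in these values was not tested.

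The testis-type isoforms did not share a direction. *Cox6b2* was higher at E17.5 by 0.77 ± 0.10 (adjusted p = 2.4e-05), and its partner *Cox6b1* by 0.21 ± 0.07 (adjusted p = 0.018). After quantile normalization these were 0.18, no longer called, and −0.15. *Cox7b2* (−0.72 ± 0.18, adjusted p = 0.0033) and *Cox8c* (−1.26 ± 0.08, adjusted p = 3.9e-08) were lower, both at signals of at most 5.04, below the median of all values. Seen as pairs, the fold change of *Cox6b2* exceeded that of *Cox6b1* by 0.56 and that of *Cox7a1* exceeded that of *Cox7a2* by 0.27. The differences of *Cox8b* and *Cox8c* from *Cox8a* were −1.48 and −3.11, and those of *Atp5g1* and *Atp5g3* from *Atp5g2* were −3.11 and −5.37. *Cox6c* was higher by 0.25 (adjusted p = 0.034) with overlapping stages, and at −0.12 after quantile normalization. *Cox7a2l*, which joins complexes III and IV into supercomplexes, was higher by 0.44 ± 0.08 (adjusted p = 0.00054) as deposited and at 0.01 after quantile normalization.

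**Figure D4:**
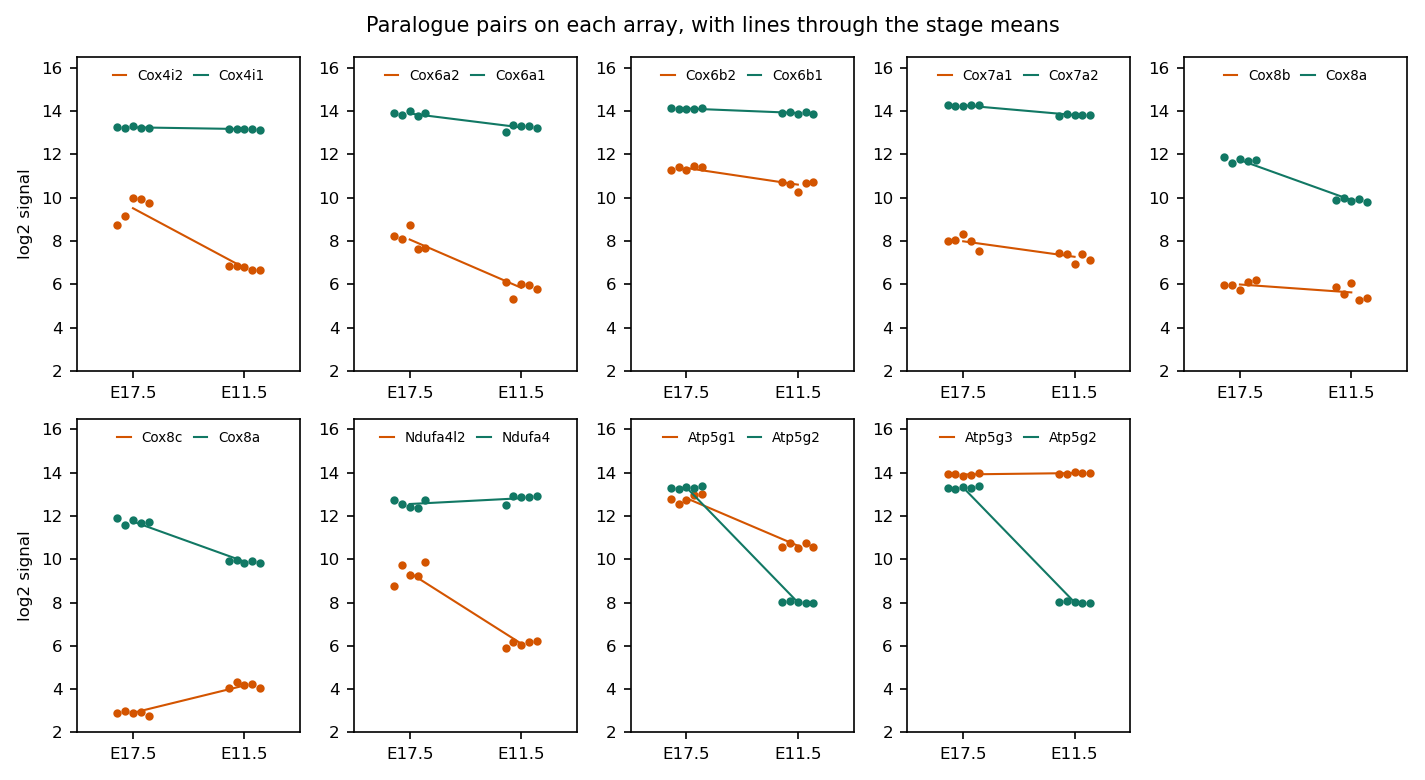
Log2 signals of 9 pairs of paralogues on each array, E17.5 left and E11.5 right, with lines between the stage means of each gene (the restricted or variant isoform orange, its partner green). Levels of different probe sets are not comparable. Slopes are as deposited and shift unequally with the scaling: after quantile normalization that of *Cox4i1* goes from 0.08 to −0.30, while that of *Cox8b* stays at 0.37. *Cox4i2*, *Cox6a2* and *Ndufa4l2* are steeper than their partners, *Cox8a* is steeper than *Cox8b*, and *Atp5g2* rises far more than *Atp5g1* while *Atp5g3* stays level as deposited.

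The 12 genes that moved apart from their complex by over 2 (the difference from the median of its other genes) were thus spread over all 5 complexes. The differences were 2.63 for *Ndufb9*, 2.15 for *Ndufb8*, −3.64 for *Ndufa10*, 3.99 for *Sdha*, 2.54 for *Uqcr10*, −2.19 for *Uqcrq*, 2.86 for *Ndufa4l2*, 2.35 for *Cox4i2*, 5.37 for *Atp5g2*, 2.45 for *Atp5c1*, 2.25 for *Atp5g1* and 2.04 for *Atp5j2*. Just inside this bound lay *Cox6a2* with 1.82 and *Cox8c* with −1.81. All 12 also met it after median centring, and 10 did after quantile normalization. Some probe sets carry the suffix _a_at (several transcripts of a gene) or _s_at and _x_at (sequence possibly shared with other genes), but 7 of the 12 ended in plain _at. Among the 12, *Atp5c1* was read by an _s_at probe set. Of the other members changed at least 2-fold, *Ndufab1* and *Ndufa12* were on _s_at and *Ndufb2* and *Cox8c* on _x_at probe sets. The fall of *Sdhc* was also read by an _x_at probe set. At least 2-fold changes were found for 25.9% of the 27 members with _a_at, 27.5% of the 51 with _at, 37.5% of the 8 with _s_at and 50% of the 4 with _x_at, and for 40.5% of all genes.

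Lists of other nuclear genes for mitochondria were read the same way and are described by counts, beside the 36.9% of all genes that were higher and the 31.5% that were lower. Their values are as deposited. After quantile normalization medians were −0.93 for mitochondrial mass, −1.02 for mitochondrial ribosomal proteins, −0.59 for complex IV assembly and −0.33 for biogenesis regulators. They were 0.01 for supercomplex factors and 0.60 for uncoupling, carriers and electron entry. The assembly factors of complex IV split widely: of 19, 8 were higher and 9 lower (median −0.19). *Cox17*, the copper chaperone that feeds the enzyme, had 12.12, 12.03, 11.97, 12.18 and 12.14 on the E17.5 arrays, against 8.46, 8.45, 8.51, 8.42 and 8.60 on the E11.5 arrays, with the stages wide apart, and rose 12.1-fold. *Cox20* (3.15) and *Cox11* (2.77) also rose, and *Coa7* fell by 2.53. Among the 6 assembly factors of complex III, 2 were higher and 2 lower, the largest fall being that of *Ttc19* (−1.23).

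All 5 genes for assembly and inhibition of ATP synthase were lower at E17.5. *Atpif1*, whose protein blocks ATP hydrolysis by the enzyme, had 8.01, 7.70, 7.77, 8.03 and 7.57 on the E17.5 arrays, against 10.21, 10.09, 9.98, 9.82 and 10.14 on the E11.5 arrays. Its fall was 4.70-fold without overlap (adjusted p = 3.3e-09), and the other 4 (*Atpaf1*, *Atpaf2*, *Tmem70* and *Fmc1*) were lower too (−0.28 to −0.43). Of the supercomplex factors *Higd1a*, a gene of the hypoxia response, was higher by 2.21.

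Regulators of mitochondrial biogenesis moved in both directions, 6 of 15 higher and 8 lower (median −0.35). The coactivator genes *Ppargc1a* and *Ppargc1b* were higher by 1.33 and 2.15, as was *Yy1* by 2.03. A further coactivator gene, *Pprc1*, was lower (−1.41, adjusted p = 5.8e-06). *Ppargc1b* lay below the median of all values on every array. *Gabpb1*, *Creb1* and *Nrf1* were lower (−2.06, −1.73 and −0.53). Of 14 genes for replication and transcription of mitochondrial DNA, 3 were higher (*Ssbp1* 3.27, *Polg* 3.13 and *Mterf3* 2.58) and 7 lower, among them *Mgme1* (−1.68) and the packaging factor *Tfam* (−1.30).

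Among genes often read as a measure of mitochondrial mass 10 of 17 were lower and 5 higher (median −0.54). Citrate synthase, *Cs*, had 11.22, 10.99, 10.77, 10.94 and 11.30 on the E17.5 arrays, against 12.58, 12.77, 12.87, 12.76 and 12.80 on the E11.5 arrays. The stages were separate, with a fall of 3.28-fold (adjusted p = 3.3e-08). *Opa1*, which fuses inner membranes, and the chaperone gene *Hspe1* were lower (−2.79 and −1.68), and *Hspa9*, the import motor's chaperone, was higher by 2.86. Of the 75 mitochondrial ribosomal protein genes, 45 were lower and 19 higher (median −0.49), with *Mrpl42* (4.4) and *Mrpl17* (4.2) at one end and *Mrps15* (−4.29) and *Mrpl58* (−4.2) at the other.

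A list of enzymes that feed electrons into the chain at coenzyme Q, uncoupling proteins and carriers of adenine nucleotides and phosphate had 8 of 13 higher and 3 lower (median 1.08). Higher were the enzymes and carriers *Sqor* (4.75), which oxidises sulphide, *Etfb* (4.21) and *Etfdh* (3.15), which bring in electrons from fatty acid oxidation, the phosphate carrier *Slc25a3* (1.99), the adenine nucleotide carriers *Slc25a4* (1.42) and *Slc25a5* (1.08), *Gpd2* (1.19) and *Etfa* (0.37). The uncoupling protein gene *Ucp3* (−0.68) and the enzyme genes *Dhodh* (−1.40) and *Prodh* (−0.83) were lower, and *Ucp1* and *Slc25a31* were not called (−0.27 each). Of 11 genes for coenzyme Q (*Pdss2* and *Coq* genes, not all of them for its synthesis), 4 were higher and 5 lower (median −0.03). Highest were *Coq10a* (3.59), *Coq9* (2.24) and *Coq10b* (2.19), and *Pdss2* (−1.26) was lowest.

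**Figure D5:**
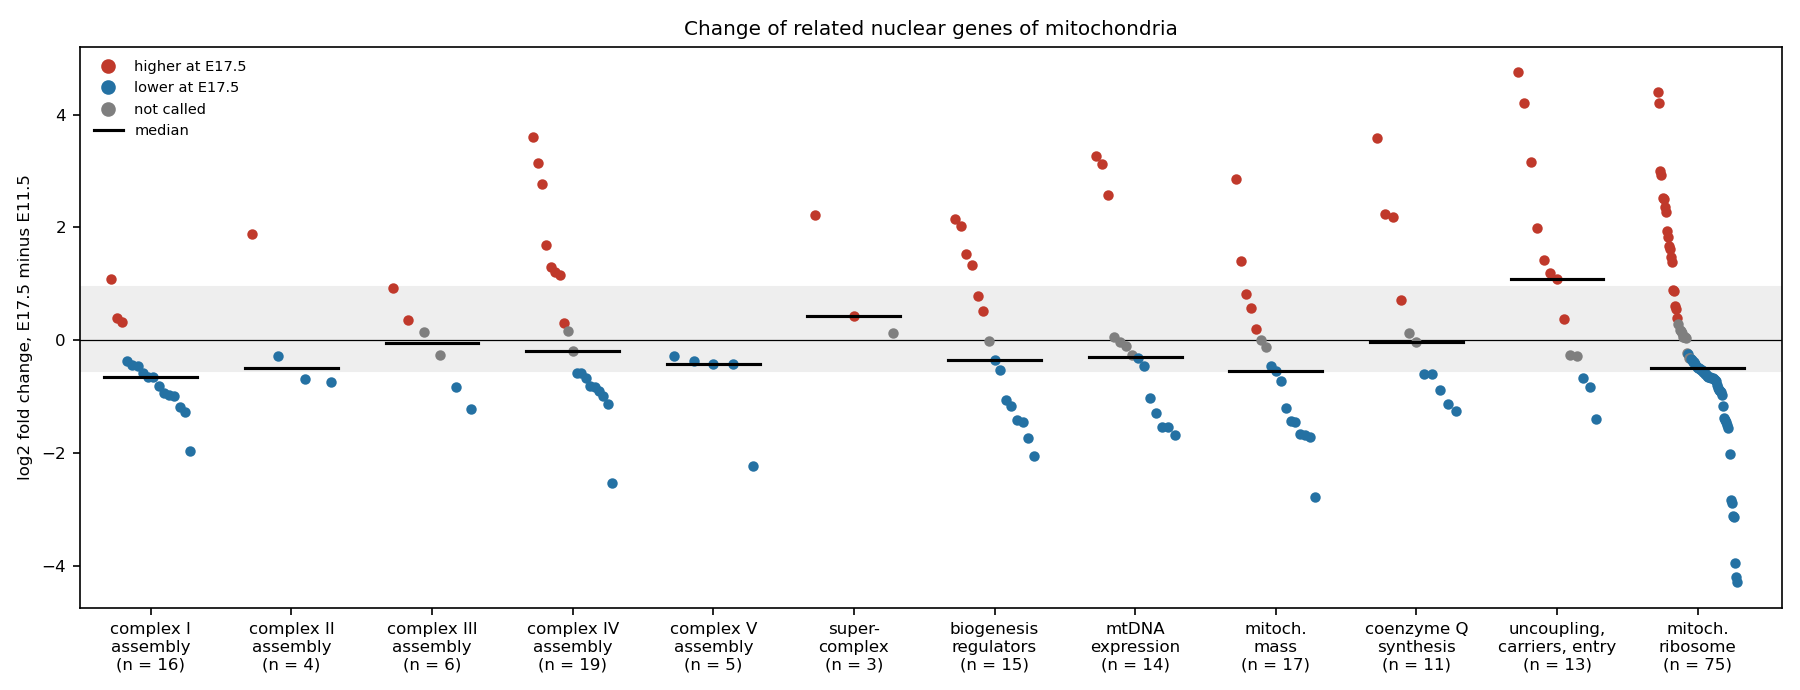
Log2 fold change (E17.5 minus E11.5) of the genes of 12 related lists, 1 point a gene, with red called higher, blue called lower, grey not called, black lines at the medians and a grey band for the middle quartiles of all genes (−0.55 to 0.94). As deposited, the medians of 10 lists lie at or below −0.03, those of supercomplex factors (0.44) and of uncoupling, carriers and electron entry (1.08) lie above 0, and all 5 genes of ATP synthase assembly are lower. After quantile normalization the median of the supercomplex factors is 0.01 and that of uncoupling, carriers and electron entry 0.60.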

How the data were processed

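RNA of 10 samples, 5 a stage, was amplified and labelled with NuGEN kits and hybridised to Affymetrix mouse arrays, which the authors processed with Bioconductor. Deposited were log2 signals for 21204 probe sets. That they are on a log2 scale was judged by their range (2.47 to 15.03). How background was corrected, how the arrays were normalized and how probe sets were chosen was not given in the sources used here. The authors' normalization sets how bright genes compare between the stages, which is why 2 further scalings were tried.

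Platform annotation gave 1 gene to 17981 probe sets and several to 514, and those naming several, with 5 probe sets of member genes, was left out. In 167 genes with over 1 probe set the brightest on average was kept, leaving 17813 genes. All 90 members were found in the RefSeq table of GRCm38.p6, which supplied names and promoter windows. Stages were compared with limma 3.58.1 (lmFit, eBayes) in R 4.3.3, without covariates, and p-values were adjusted over all genes (Benjamini-Hochberg, threshold 0.05). Plots were made with matplotlib 3.10.9 (Python 3.11.15). The code was tested on simulated data.

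Members and lists were chosen with earlier results of these data known. Named were the 3 largest rises and falls of each complex, members over 2 from the median of the other genes of their complex, paralogue pairs, core and catalytic subunits, up to 4 called genes of each related list and the genes behind counts of 5 or fewer. Genes named beyond this rule (among them *Ppargc1a*, *Pprc1*, *Nrf1*, *Tfam*, *Cox6c*, the further genes for electron entry and carriers, and the remaining *Ndufaf* and membrane arm genes) were chosen after their values were seen, as was the pericyte list. Of 10 pairs planned, 9 were measured. Alternatives were quantile normalization, median centring, the mean of a gene's probe sets, plain _at probe sets only, no dim genes, trend and robust moderation, a test against a 2-fold change, a replicate block and leaving out each array.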

Additional observations from a re-analysis of the deposited data

Results flagged for a closer look

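In 110 groups of 5 arrays (55 named genes at 2 stages), 8 held 1 array that stood apart from the other 4, its gap to the nearest exceeding 0.71 of the group's range. Chance flags about 5% of groups, or about 6 of 110. Log2 signals were as follows. At E17.5, *Ndufs4* read 8.24 on replicate 4, with 7.41 the nearest, and *Ndufaf7* read 10.67 on replicate 4, with 10.42 the nearest. At E11.5 replicate 1 was low for *Atp5h* (13.49, nearest 13.60), *Ndufa4* (12.52, nearest 12.86) and *Ndufaf3* (10.05, nearest 10.35). The other arrays at E11.5 were replicate 3 for *Cox6b2* (10.27, nearest 10.63), replicate 4 for *Cox7a2l* (12.60, nearest 12.54) and replicate 5 for *Cox4i1* (13.12, nearest 13.17). For *Ndufs4* and *Ndufaf7*, which stood apart at E17.5, the called direction was the same without replicate 4.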

How the results depend on the processing

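Quantile normalization raised the count of lower members to 50, and 39.0% of all genes were lower under it. It gave medians of −0.31 for all members, −0.22 for complex I, −0.83 for complex II, −0.71 for complex III, 0.18 for complex IV and −0.42 for complex V. Under it 20 of the 90 members changed sign, each to a negative value, among them *Atp5a1* (−0.26), *Atp5e* (−0.33), *Cox4i1* (−0.30), *Cox6b1* (−0.15), *Ndufaf3* (−0.21), *Ndufaf7* (−0.27), *Ndufv1* (−0.24) and *Ndufv2* (−0.38). Median centring gave −0.0611 for all members and 0.0568, −0.46, −0.34, 0.32 and −0.19 for complexes I to V. With the 51 members on plain _at probe sets, 16 were higher, and the medians were −0.0618 for all, 0.0171 for complex I, −0.21 for complex II and 0.72 for complex IV; fewer genes were then tested. Against a 2-fold change, 19 were called higher and 5 lower. Without dim genes the median of complex IV was 0.64. The cause of these shifts was not tested. Leaving out single arrays gave 36 to 38 higher and 20 to 25 lower members and a median of 0.05 to 0.08. Replicate numbers did not pair the arrays (correlations of same-numbered deviations −0.29 to 0.07), and the replicate block gave 35 higher and 19 lower; *Atp5b*, *Atp5d*, *Cox6b1*, *Cyc1*, *Ndufa4* and *Ndufs1* lost their call under it.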
